A study of Mus musculus with 75 samples.

Results

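The subject is a set of 9 nuclear genes that run mitochondrial DNA (mtDNA) and switch on mitochondrial genes, taken by symbol from the deposited gene tables: Polrmt, Polg, Polg2, Tfam, Tfb2m, Nrf1, Gabpa, Ppargc1b and Esrra. All 9 were found among the 22781 genes of the series, and all 9 passed the filter on low counts in every fit. RNA sequencing had been done on epididymal fat (eWAT, a visceral depot), inguinal fat (iWAT, a subcutaneous depot) and gastrocnemius muscle of mice in which nuclear and mitochondrial genomes of different strains had been exchanged. The design text asks whether mtDNA background alters the transcriptional response to diet.

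There were 75 libraries from 43 animals, in 20 groups of 3 or 4. The exchange line C57n:C3Hmt carries the C57BL6/J nuclear genome with C3H/HeN mtDNA, and the exchange line C3Hn:C57mt carries the C3H/HeN nuclear genome with C57BL6/J mtDNA. Their wild types were C57n:C57mt (C57BL6/J) and C3Hn:C3Hmt (C3H/HeN). The exchange is present in all cells of the animal, no other allele is stated, and the labels do not state sex. Mice given a high-fat diet (HFD) ate it from 6 weeks of age until tissue collection at 12 to 13 weeks, after weaning on chow, and chow mice stayed on chow. HFD libraries numbered 14 in eWAT and 14 in iWAT, and chow libraries 15 in eWAT, 16 in iWAT and 16 in muscle; muscle on HFD was not analysed here. Several tissues of an animal were often sequenced, so tissue groups share animals.

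Mitochondria keep a small circular genome that encodes a few respiratory chain subunits, while all the proteins that copy and transcribe it are nuclear gene products. Polrmt is the mitochondrial RNA polymerase. Tfam is the protein that packages mtDNA and bends its promoters, and Tfb2m is the initiation factor that helps Polrmt open them. Polg is the catalytic subunit of the mtDNA polymerase and Polg2 its accessory subunit. Nrf1 (nuclear respiratory factor) and Gabpa (the DNA-binding ETS subunit of GABP) are transcription factors known to bind promoters of many nuclear genes for mitochondrial proteins, Tfam, Tfb2m and Polrmt among them. Esrra encodes the orphan nuclear receptor ERRα, and Ppargc1b the coactivator PGC-1β, a relative of PGC-1α (Ppargc1a), which drives these factors in muscle and in thermogenic fat.

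The promoter sequences shown here are those of members with a match to the ETS core described below. They come from RefSeq windows on GRCm38.p6 that run from 250 bases before to 50 bases after each start site. Windows were found for 8 of the 9 genes (2 for Nrf1), and Ppargc1b had none. The ETS core CCGGAAG, the sequence that GABP is known to bind, was searched on both strands and occurred in 5 of these 8 genes, against 8.86% of all 32851 windows (2910 windows). Letters in capitals mark motif matches, and the sequences are written 5′ to 3′ on the gene's own strand.
Polrmt (chr10:79746532-79746831, minus strand): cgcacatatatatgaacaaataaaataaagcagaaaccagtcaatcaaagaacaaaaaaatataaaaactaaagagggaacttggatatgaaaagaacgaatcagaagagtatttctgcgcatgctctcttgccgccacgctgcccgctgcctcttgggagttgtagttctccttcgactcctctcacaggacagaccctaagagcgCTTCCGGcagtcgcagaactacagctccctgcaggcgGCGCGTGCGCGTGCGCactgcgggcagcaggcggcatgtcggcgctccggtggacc
Tfam (chr10:71237995-71238294, minus strand): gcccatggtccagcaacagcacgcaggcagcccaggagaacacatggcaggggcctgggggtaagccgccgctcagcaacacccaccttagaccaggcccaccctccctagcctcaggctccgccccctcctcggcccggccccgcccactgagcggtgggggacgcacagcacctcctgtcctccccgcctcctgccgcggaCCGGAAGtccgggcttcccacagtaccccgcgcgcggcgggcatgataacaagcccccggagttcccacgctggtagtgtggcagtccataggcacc
Gabpa (chr16:84834874-84835173, plus strand): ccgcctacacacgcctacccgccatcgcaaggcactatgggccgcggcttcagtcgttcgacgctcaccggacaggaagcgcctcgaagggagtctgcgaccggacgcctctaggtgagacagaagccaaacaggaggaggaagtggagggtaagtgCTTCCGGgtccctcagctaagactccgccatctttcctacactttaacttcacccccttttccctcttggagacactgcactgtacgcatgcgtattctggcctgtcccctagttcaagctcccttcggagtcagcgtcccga
Polg (60 bases, chr7:79466277-79466336, minus strand): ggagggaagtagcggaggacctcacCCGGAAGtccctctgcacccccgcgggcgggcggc
Polg2 (60 bases, chr11:106779532-106779591, minus strand): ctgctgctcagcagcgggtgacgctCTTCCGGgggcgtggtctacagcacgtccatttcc
The ETS match began 43 bases before the start site in Polrmt, 38 in Polg, 29 in Polg2, 47 in Tfam and 93 in Gabpa itself. The match runs on the gene's strand in Tfam and Polg and as its reverse complement, CTTCCGG, in Polrmt, Polg2 and Gabpa. The NRF1 core GCGCANGCGC, searched on both strands, was present in Polrmt alone among these genes, as 2 overlapping matches across the start site (the capitals after the ETS match), against 4.60% of all windows. The ERR element core TNAAGGTCA, found in 1.28% of windows, was in none of the 8 genes' windows. A match is a stretch of letters and no evidence that the factor was bound in these tissues.

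On the build of the counts (NCBIM37, mm9, GENCODE vM1 annotation) the genes are protein-coding and lie apart: Polrmt at chr10:79198868-79209326 and Tfam at chr10:70688212-70701028 (both minus strand), Polg at chr7:86593677-86611248, Polg2 at chr11:106629567-106640851, Tfb2m at chr1:181458186-181476398 and Esrra at chr19:6985467-6996303 (minus strand), Nrf1 at chr6:29997988-30103458 and Gabpa at chr16:84835170-84864024 (plus strand). Exons of 4 of them overlap a gene on the opposite strand. The overlap is 856 bases with Fanci for Polg, 132 bases with Gm885 for Polg2, 397 bases with Atp5j for Gabpa and 73 bases with Trmt112 for Esrra. Whether counting used strand is not given in the sources used here, so reads from these stretches cannot be told apart from those of the partner gene.

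Library totals ran from 15.7 M to 31.5 M estimated counts (M, 1000000). By the first code of the sample titles, read here as the sequencing run, all chow libraries came from 1 run and the HFD libraries from 3 others. Diet and run thus cannot be told apart in any HFD against chow comparison. A further code, read as lane, differed on chow between tissues. Within each tissue it also differed between the nuclear genomes, but for eWAT C57n:C57mt chow replicate 1. Lane thus cannot be told apart from tissue or nuclear genome on chow. The labels do not explain these codes. CPM here are counts per 1000000 counts after TMM scaling between libraries, and not plain shares of a library's counts. Summed CPM of 6 adipocyte markers were 365 to 878 in muscle and 3786 to 34018 in fat. In muscle, 7 fast muscle fibre markers summed to 286937 to 414015 CPM. In eWAT, 6 libraries (1 HFD, 5 chow) held RNA of epididymal epithelium, with over 1000 summed CPM of 11 markers. In iWAT, lymphocyte markers had a median of 31.4 CPM on HFD (6.32 to 2187) and of 412 CPM on chow (7.02 to 1048). The fast fibre markers in iWAT had a median of 1329 CPM on HFD (21.8 to 17772) and of 139 CPM on chow (7.64 to 13559), so the medians of both lists differed with diet there. Their part in the diet differences was not tested beyond a fit in iWAT with both levels as covariates. In such bulk samples fewer cells of a type and less RNA per cell cannot be told apart. Replicates are separate animals by their labels, and the closest pair within a group still differed by a chi-square of 5.68 per degree of freedom.

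Levels between genes can be compared only per length, here CPM per kilobase of the longest annotated transcript, averaged over libraries of a tissue and diet. In muscle the order was Esrra 86.2, Tfb2m 36.1, Tfam 19.2, Polrmt 11.3, Polg 8.73, Gabpa 7.65, Nrf1 5.10, Ppargc1b 2.36 and Polg2 1.04 CPM per kilobase. Transcription genes thus stood above the replication genes, and the accessory polymerase subunit was at the bottom. In eWAT on HFD the order was led by Tfb2m (13.0), Esrra (10.5) and Gabpa (7.73), and closed with Polg2 (0.644) and Ppargc1b (0.513). In eWAT on chow Esrra led (16), ahead of Tfb2m (11) and Polg (7.53), with Gabpa at 4.95. Inguinal fat had the same leaders, Tfb2m (15.3) and Esrra (11.6) on HFD against Esrra (20.0) and Tfb2m (13.5) on chow. Polg2 and Ppargc1b were thinly sampled, down to 9.25 and 16 estimated counts in a library, which limits the precision of their values.

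**Figure D1:**
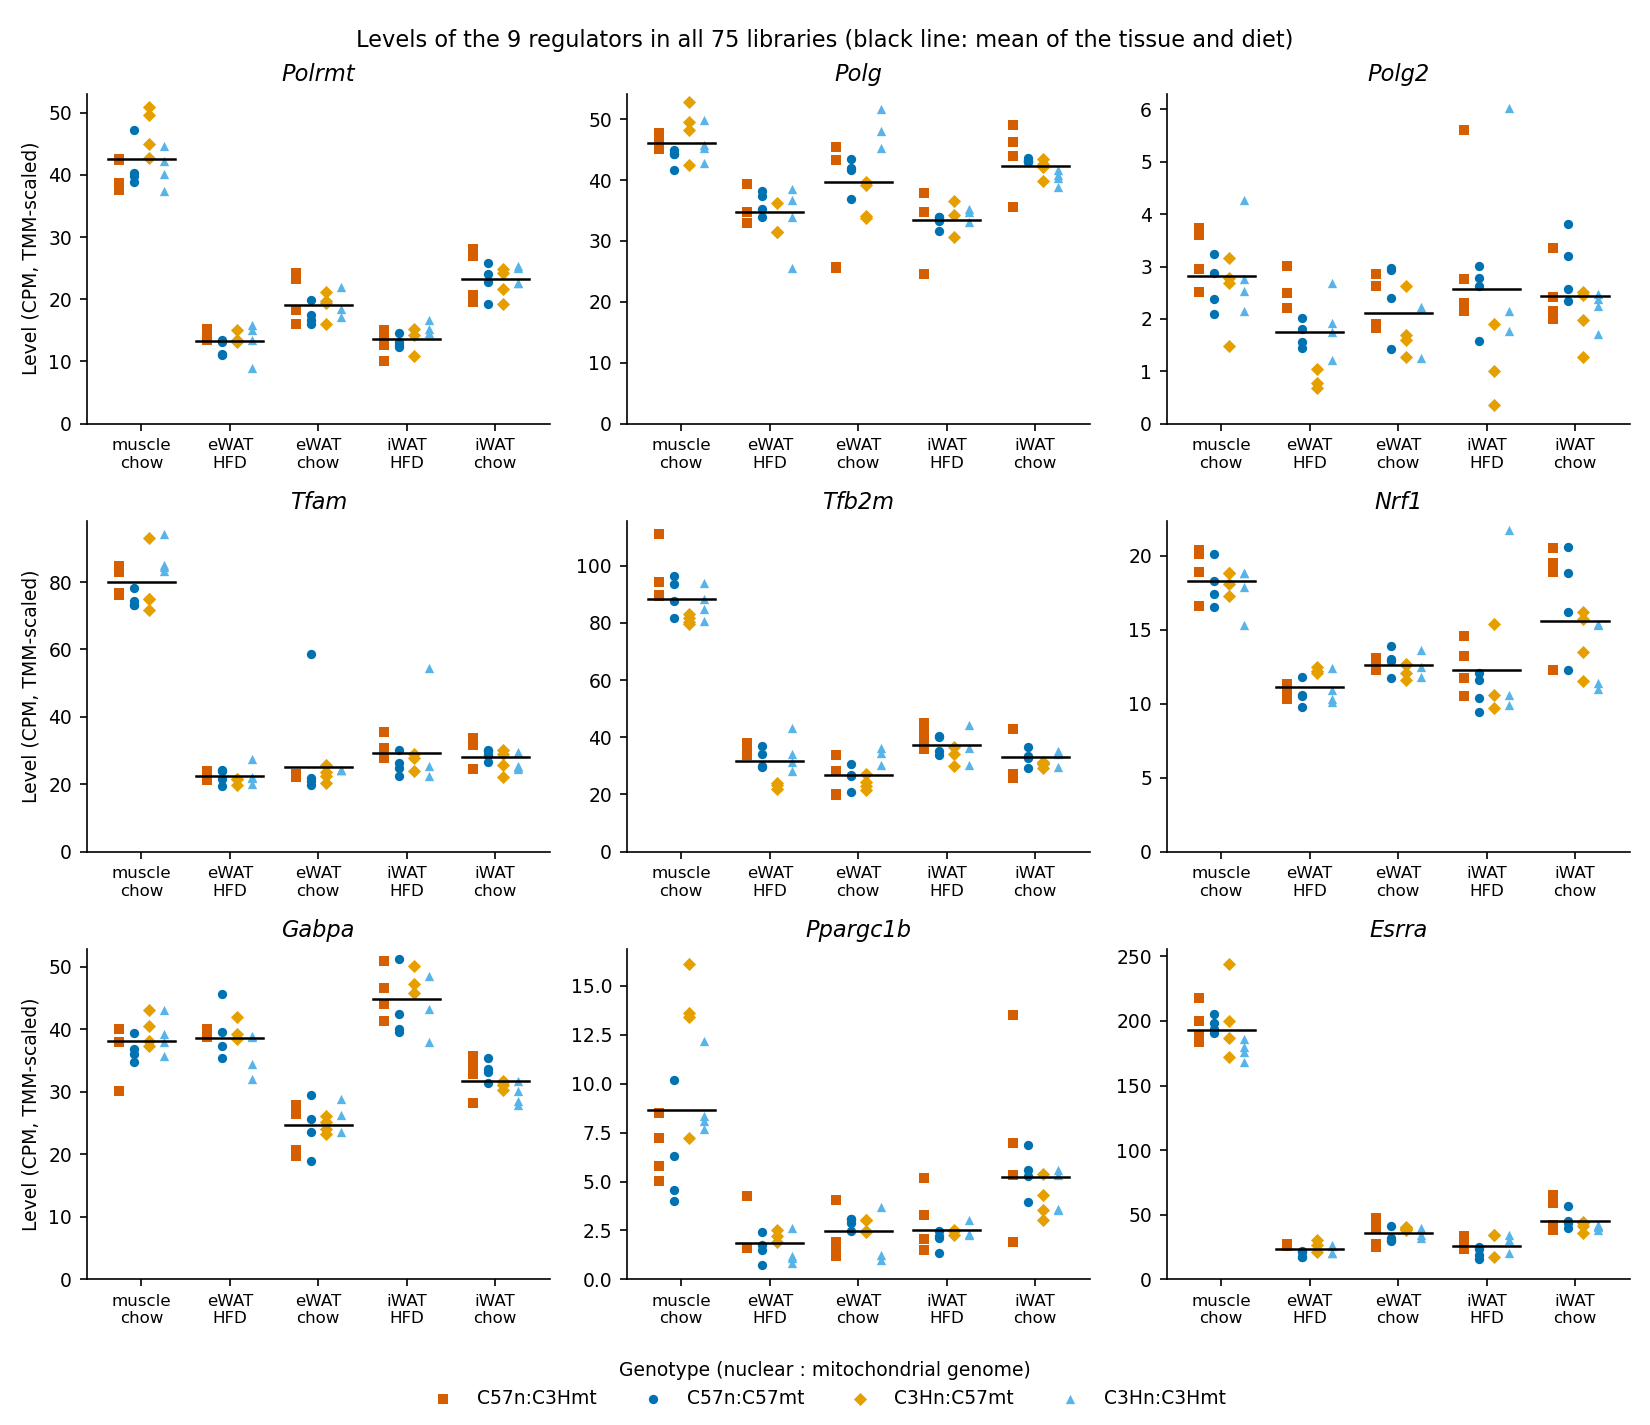
Level of each of the 9 regulators in every library, in TMM-scaled CPM (counts per 1000000 counts), by tissue and diet. Colours mark the genotypes, and a black line the mean of each tissue and diet. Muscle sits above all fat libraries for Esrra, Tfam, Tfb2m and Polrmt, while Gabpa in fat is higher on HFD than on chow and Polrmt lower. The share of all genes with muscle set apart in this way was not computed.

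Muscle held these transcripts at higher TMM-scaled CPM than fat, and for some of them the direction rests on the scaling. Mean totals were 24.12 M counts in muscle, 24.77 M in eWAT and 23.24 M in iWAT on chow. Median estimated counts, unscaled, were highest in muscle for Esrra, Tfam and Tfb2m. They were lowest in muscle for Polrmt (489, against 587 in eWAT and 641 in iWAT), Polg, Polg2, Nrf1 and Gabpa, and Ppargc1b lay between (92, against 71 and 134.5). Against eWAT on chow all 9 genes were higher in muscle, and against iWAT on chow 8 of 9, Polg2 being the exception. With this many genes differing between tissues, 82.6% of all genes were called against eWAT (32.8% higher and 49.7% lower in muscle), and 80.4% against iWAT (34.1% higher and 46.3% lower). Calls are edgeR quasi-likelihood tests with Benjamini-Hochberg adjusted p under 0.05 over all genes fitted, and differences are log2, muscle minus fat. The median gene stood at -0.51 against eWAT and -0.32 against iWAT, so changes relative to that median are given too. This median depends on the setting: against eWAT it was -0.26 without the libraries that held epithelial RNA and -0.14 with the animal as a block, and against iWAT it was -0.16 by DESeq2 and -0.11 with the block.

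Among the members Esrra had the widest gap. It had 168, 189 and 244 CPM in muscle (lowest, median and highest of 16), against 25.3, 38.1 and 47.7 in eWAT and 36.0, 42.2 and 65.1 in iWAT on chow. No muscle library overlapped fat for Esrra, but the share of all genes separated this way was not computed. Muscle was higher by 2.46 ± 0.08 (log2 ± SE, adjusted p = 3.98e-26) against eWAT and by 2.12 ± 0.08 (8.77e-25) against iWAT. Relative to the median gene these differences were 2.97 and 2.45. The coactivator gene Ppargc1b had 4.03, 7.89 and 16.1 CPM in muscle, against 1, 2.49 and 4.06 in eWAT and 1.93, 5.29 and 13.5 in iWAT, and was higher in muscle by 1.81 ± 0.21 (5.61e-10) and 0.71 ± 0.20 (0.00143). Muscle and iWAT libraries overlapped for Ppargc1b. Its relative Ppargc1a was higher in muscle by 3.47 ± 0.25 against eWAT and by 2.87 ± 0.24 against iWAT.

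The transcription machinery was higher in muscle too. Tfb2m had 79.8, 88.0 and 111 CPM in muscle, against 19.9, 26.7 and 36.3 in eWAT and 25.9, 32.1 and 43.0 in iWAT. Tfam had 71.6, 77.6 and 94.3 CPM in muscle, against 19.8, 22.6 and 58.8 in eWAT and 22, 28.8 and 33.7 in iWAT. Polrmt had 37.4, 42.3 and 51.0 CPM in muscle, against 16, 18.4 and 24.2 in eWAT and 19.2, 23.5 and 28.1 in iWAT. For all 3 genes every muscle library was above every fat library on chow, as for Esrra. The share of all genes separated this way was not computed. The differences from eWAT were 1.74 ± 0.07 for Tfb2m (8.4e-23), 1.72 ± 0.10 for Tfam (4.33e-19) and 1.19 ± 0.06 for Polrmt (7.98e-20), and those from iWAT 1.43 ± 0.07 (1.09e-20), 1.52 ± 0.09 (6.42e-18) and 0.88 ± 0.06 (3.38e-16).

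The replication genes and the DNA-binding factors differed less. Gabpa was higher in muscle by 0.65 ± 0.06 (1.33e-13) against eWAT and by 0.28 ± 0.05 (1.4e-05) against iWAT. Nrf1 was higher by 0.56 ± 0.07 (3.37e-09) and 0.25 ± 0.07 (0.00121). Polg was higher by 0.24 ± 0.06 (0.00061) and 0.13 ± 0.06 (0.044), and Polg2 by 0.46 ± 0.14 (0.00358) against eWAT, with 0.23 ± 0.14 (0.123) against iWAT. Relative to the median gene, muscle minus eWAT and muscle minus iWAT were 0.74 and 0.45 for Polg, 0.97 and 0.56 for Polg2, 1.07 and 0.58 for Nrf1 and 1.16 and 0.60 for Gabpa. Polg was called against iWAT by a small margin, and 21 of the 32 fits that each left out 1 library gave an adjusted p above 0.05 (up to 0.0877). With the animal as a block, Polg lost its call against eWAT (0.24 ± 0.12, adjusted p = 0.0924).

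Most other genes of the same pathways were called too, as were most of all genes. Against eWAT 82.6% of all genes were called (32.8% higher and 49.7% lower), and against iWAT 80.4% (34.1% higher and 46.3% lower). Of each list 88.9% to 100% was called against either depot, near or somewhat above that background. Of 16 further genes of mtDNA transcription and RNA processing, 13 were higher and 2 lower in muscle than in eWAT (median 0.55), Lrpprc, a binder of mitochondrial mRNA, by 1.94 ± 0.08 and the elongation factor gene Tefm by 1.71 ± 0.08. Of 12 mtDNA maintenance genes, 8 were higher and 4 lower, with the helicase gene Twnk at 1.89 ± 0.08 and the thymidine kinase gene Tk2 at -1.90 ± 0.07. Of 18 further biogenesis regulators, 10 were higher, among them Esrrb (5.18 ± 0.30) and the AMP kinase subunit gene Prkaa2 (4.24 ± 0.24), and 6 lower, among them Foxo1 (-1.39 ± 0.14). All 19 respiratory target genes tested were higher (median 2.40), led by Cox5a at 3.37 ± 0.11, and so were the 3 mtDNA-encoded genes in the tables, mt-Nd4 (2.42 ± 0.16) and the rows named Cox2 (2.61 ± 0.16) and Atpase6 (2.58 ± 0.16). Against iWAT the counts were 12 higher and 3 lower for transcription, 7 and 4 for maintenance, 9 and 7 for regulators, and 19 and 0 for respiratory genes.

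**Figure D2:**
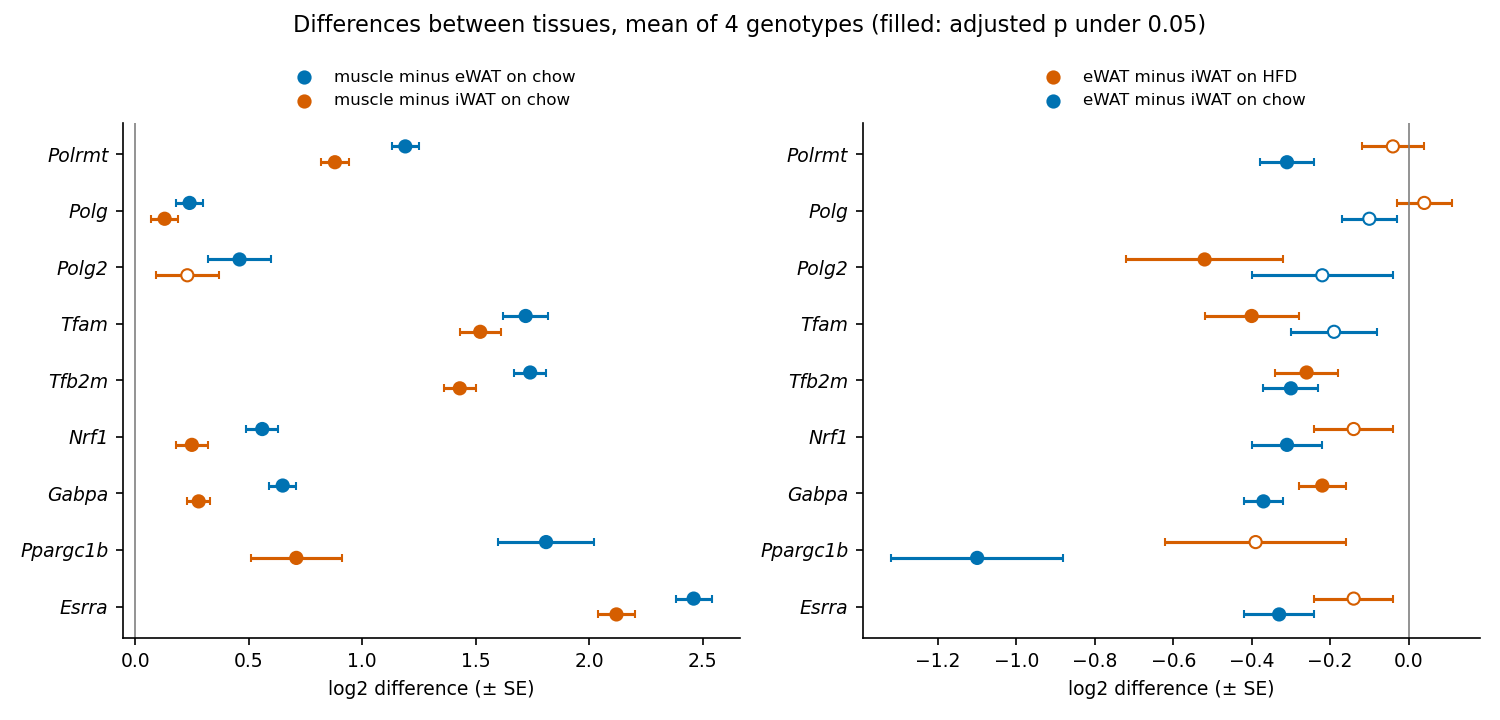
Log2 differences with standard errors for the 9 regulators: left, muscle minus eWAT (blue) and muscle minus iWAT (orange) on chow, and right, eWAT minus iWAT on HFD (orange) and on chow (blue). Esrra has the largest muscle difference (2.46 and 2.12) and Polg the smallest (0.24 and 0.13). All 9 eWAT minus iWAT values on chow are negative, with Ppargc1b lowest at -1.10.

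Between the fat depots, every regulator that was called was lower in eWAT. On chow, 6 of the 9 were lower in eWAT than in iWAT and none higher, against a background of 33.0% of all genes called (18.8% higher and 14.3% lower in eWAT); the members' median was -0.31, and that of all genes 0.04. On HFD, 4 of 9 were lower and none higher, against 22.8% of all genes (9.99% higher and 12.8% lower), with medians of -0.22 and -0.02. Ppargc1b had the largest difference on chow, at 1, 2.49 and 4.06 CPM in eWAT (lowest, median, highest of 15) against 1.93, 5.29 and 13.5 in iWAT (of 16), a difference of -1.10 ± 0.22 (0.000139). Gabpa had 18.9, 25.2 and 29.5 CPM in eWAT against 27.9, 31.7 and 35.8 in iWAT, -0.37 ± 0.05 (8.37e-07). The ranges overlapped for both genes.

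Of the transcription genes, Polrmt was lower in eWAT on chow by 0.31 (SE 0.07, adjusted p = 0.000944), and Tfb2m differed by -0.30 ± 0.07 (0.00128). Nrf1 differed by -0.31 ± 0.09 (0.00813) and Esrra by -0.33 ± 0.09 (0.00482). Tfam (-0.19 ± 0.11, 0.201), Polg (-0.10 ± 0.07, 0.255) and Polg2 (-0.22 ± 0.18, 0.38) did not pass. Tfam turned on 1 library, eWAT C57n:C57mt chow replicate 3 with 58.8 CPM, without which the difference was -0.32 (0.00163). With the animal as a block, Tfam passed (-0.30 ± 0.08, 0.0453), Tfb2m (-0.23 ± 0.08, 0.0823) and Nrf1 (-0.32 ± 0.11, 0.084) did not, and 2178 in place of 6088 genes were called in all. Without the eWAT libraries that held epithelial RNA, Tfb2m and Esrra lost their calls and Tfam gained one.

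On HFD, Tfam was lower in eWAT, with 19.5, 21.7 and 27.4 CPM (lowest, median, highest of 14) against 22.3, 27.8 and 54.6 in iWAT (of 14), a difference of -0.40 ± 0.12 (0.00921). Gabpa differed by -0.22 ± 0.06 (0.00337), Tfb2m by -0.26 ± 0.08 (0.0127) and Polg2 by -0.52 ± 0.20 (0.0467). With run as a covariate Gabpa (-0.24 ± 0.06, 0.00159) and Tfb2m (-0.29 ± 0.08, 0.00587) were still called, while Tfam (-0.28 ± 0.10, 0.053) and Polg2 (-0.34 ± 0.19, 0.205) were not. Polg2 rested on iWAT C3Hn:C3Hmt HFD replicate 3 (6.02 CPM), without which it was -0.32 (0.247), and it lost its call in 17 of 28 fits without 1 library and with the animal as a block (-0.41 ± 0.23, 0.215). Ppargc1b was at -0.39 ± 0.23 (0.239) on HFD, and Ppargc1a at -1.28 ± 0.44 (0.0309). None of the 9 passed the test of whether the depot difference changed with diet, for which 0.0434% of all genes were called (8 genes). The lowest adjusted p there was 0.191, for Polrmt (0.28 ± 0.11), 2 of 9 members had an unadjusted p under 0.05, and DESeq2 called none.

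In the pathway lists nearly every gene called was lower in eWAT as well. On chow, where 33.0% of all genes were called, 10 of 16 transcription and processing genes were lower in eWAT and none higher, among them Mterf2 (-0.63 ± 0.10) and Trmt10c (-0.42 ± 0.07), and 2 of 12 maintenance genes, Lonp1 and Atad3a, were lower. Of 18 regulators, 5 were lower, with the mitochondrial deacetylase gene Sirt3 at -0.47 ± 0.10. Of 19 respiratory genes, 16 were lower (Uqcrc2 -0.66 ± 0.11) and 1 was higher (Atp5g1, 0.60 ± 0.17), with a median of -0.52. On HFD, against 22.8% of all genes, the counts of lower genes were 7 of 16, 0 of 12, 5 of 18 and 16 of 19, with none higher. Brown fat markers summed to 9.61 to 39.7 CPM in eWAT and 34.7 to 679 CPM in iWAT on HFD. On chow they summed to 6.93 to 324 CPM in eWAT and 72.3 to 2094 CPM in iWAT. Fast muscle fibre markers summed to 8.97 to 91.7 CPM in eWAT and 21.8 to 17772 CPM in iWAT on HFD. On chow these were 8.12 to 519 CPM in eWAT and 7.64 to 13559 CPM in iWAT. The part of both lists in the depot differences was not tested.

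The diet comparison, averaged over the 4 genotypes, split the set by direction. Gabpa rose on HFD in both depots, while Polrmt, Esrra and Nrf1 fell in both. In eWAT 4 of 9 were called (1 higher, 3 lower), against 41.0% of all genes (18.4% higher and 22.7% lower). In iWAT 7 of 9 were called (2 higher, 5 lower), against 37.6% of all genes (21.4% higher and 16.2% lower). The members' median was -0.20 in eWAT, where that of all genes was -0.11, and -0.32 in iWAT, where it was 0.01.

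Polrmt, the mitochondrial RNA polymerase, had 8.99, 13.4 and 15.9 CPM in eWAT on HFD (lowest, median, highest of 14), against 16, 18.4 and 24.2 on chow (of 15). In iWAT it had 10, 14.2 and 16.7 CPM on HFD (of 14), against 19.2, 23.5 and 28.1 on chow (of 16). HFD and chow libraries did not overlap in either depot, where 0.270% of all genes in eWAT and 0.403% in iWAT had every HFD library below every chow library. Its HFD minus chow difference was -0.50 ± 0.08 (9.58e-05) in eWAT and -0.75 ± 0.07 (2.25e-08) in iWAT. The other initiation genes did not follow it. Tfam was at -0.15 ± 0.12 (0.305) and 0.08 ± 0.10 (0.54), with overlapping libraries. Tfb2m was at 0.20 ± 0.08 (0.0535) in eWAT and 0.18 ± 0.07 (0.0452) in iWAT, where the call was lost in 24 of 30 fits that left out 1 library (adjusted p up to 0.165, without iWAT C3Hn:C3Hmt HFD replicate 1). With lymphocyte and muscle marker levels as covariates in iWAT, Tfb2m lost its call and Tfam gained one.

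Of the replication genes, Polg was called in iWAT and neither was called in eWAT. Polg had 24.6, 34.1 and 37.8 CPM in iWAT on HFD, against 35.6, 42.8 and 49.1 on chow, -0.32 ± 0.05 (5.3e-05). In eWAT it had 25.5, 35.0 and 39.4 CPM on HFD, against 25.5, 41.6 and 51.7 on chow, -0.20 ± 0.08 (0.0588). The lowest eWAT chow values of Polg, 25.5 and 25.8, were those of C57n:C3Hmt replicates 1 and 4, which held 54044 and 50511 CPM of epithelial markers, and without all 6 such libraries Polg was called at -0.34 (0.00071). Polg2 was at -0.36 ± 0.16 (0.0721) in eWAT, called at -0.51 (0.0151) without those libraries, and at -0.03 ± 0.21 (0.923) in iWAT.

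Of the transcription factors, Gabpa had 32.1, 38.8 and 45.6 CPM in eWAT on HFD, against 18.9, 25.2 and 29.5 on chow, and 38, 44.9 and 51.2 CPM in iWAT on HFD, against 27.9, 31.7 and 35.8 on chow. No HFD library overlapped a chow library in either depot, and 0.602% of all genes in eWAT and 0.734% in iWAT had every HFD library above every chow library. It rose by 0.65 ± 0.07 (4.87e-07) in eWAT and by 0.52 ± 0.05 (1.3e-08) in iWAT, and these HFD values overlapped those of muscle on chow (30.1, 38.1 and 43.1 CPM). Nrf1 fell slightly, by 0.17 (SE 0.05, 0.0135) in eWAT and by 0.32 (SE 0.12, 0.0402) in iWAT. The iWAT call of Nrf1 was lost in 11 of 30 fits without 1 library (adjusted p up to 0.0713, without iWAT C3Hn:C3Hmt HFD replicate 1), and with lymphocyte and muscle marker levels as covariates (-0.13 ± 0.06, 0.0944). The highest iWAT values on HFD of Nrf1 (21.7 CPM), Tfam (54.6) and Polg2 (6.02) were all in C3Hn:C3Hmt replicate 3. That library had 2187 CPM of lymphocyte markers and was the only one (1 library) with its run code.

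Esrra had 17.3, 23.8 and 30.1 CPM in eWAT on HFD, against 25.3, 38.1 and 47.7 on chow, and 15.4, 26.2 and 34.2 CPM in iWAT on HFD, against 36.0, 42.2 and 65.1 on chow. The iWAT groups did not overlap, with every HFD library below, as in 0.403% of all genes, and the eWAT groups did. It differed by -0.59 ± 0.09 (2.13e-05) in eWAT and by -0.76 ± 0.11 (5.34e-06) in iWAT. Ppargc1b, the coactivator that partners ERRα, had 1.35, 2.29 and 5.16 CPM in iWAT on HFD, against 1.93, 5.29 and 13.5 on chow, -1.03 ± 0.21 (0.000348). In eWAT it was at -0.35 ± 0.24 (0.257). Ppargc1a was at 0.03 ± 0.40 (0.982) in eWAT and 0.74 ± 0.43 (0.182) in iWAT. The highest iWAT chow value of Ppargc1b, 13.5 CPM in C57n:C3Hmt replicate 2, stood beside 1825 CPM of brown fat markers and 1048 CPM of lymphocyte markers in that library. Macrophage markers summed to 359 to 2653 CPM in eWAT on HFD and 125 to 1161 CPM on chow, and the part of cell mixture in these changes was not tested.

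**Figure D3:**
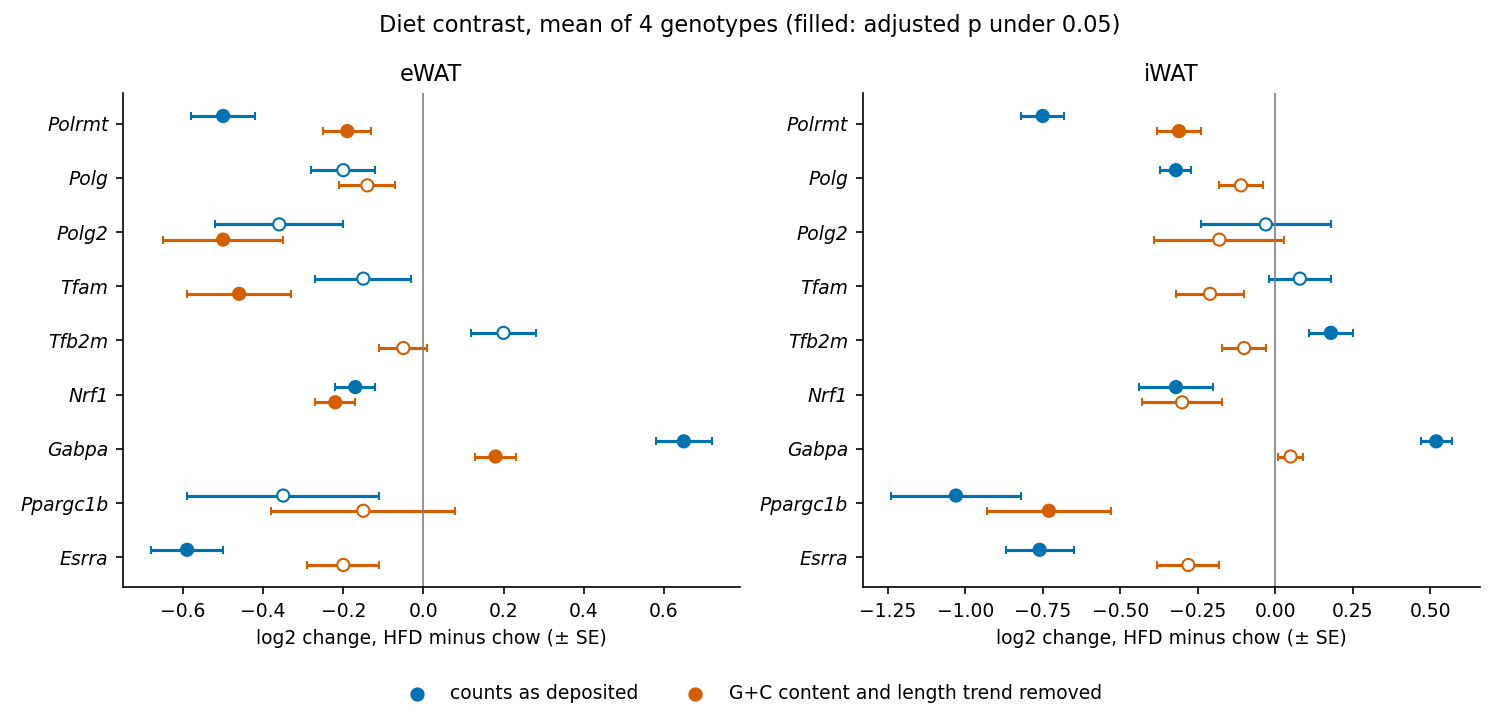
HFD minus chow log2 difference with standard error for the 9 regulators in eWAT (left) and iWAT (right), from the counts as deposited (blue) and after removal of the trend with transcript G+C content and length (orange), with filled points at adjusted p under 0.05. Gabpa is the highest blue point in both depots (0.65 and 0.52), and Ppargc1b in iWAT the lowest (-1.03).

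Other genes of the pathways did not move as a block on HFD. In eWAT, against 41.0% of all genes, the share called was 43.8% of transcription, 50% of maintenance, 50% of regulator and 36.8% of respiratory genes. In iWAT, against 37.6%, these shares were 43.8%, 50%, 55.6% and 42.1%, so the lists lay near the background or somewhat above it. In eWAT 2 of 16 transcription and processing genes were higher, the RNA exonuclease gene Pnpt1 (0.42 ± 0.10, 0.00211) and Trmt10c, and 5 were lower, among them the topoisomerase gene Top1mt (-0.50 ± 0.09, 0.000178). In iWAT 4 were higher and 3 lower, with Pnpt1 at 0.42 ± 0.06 and Top1mt at -0.52 ± 0.07. Of 12 maintenance genes, 1 was higher and 5 lower in eWAT, and 2 higher and 4 lower in iWAT. Rrm2b, a ribonucleotide reductase subunit gene, rose in both (0.51 ± 0.11 and 0.76 ± 0.06), and Twnk fell in both (-0.49 ± 0.11 and -0.35 ± 0.08). Of 18 regulators, 6 were higher and 3 lower in eWAT, and 7 higher and 3 lower in iWAT. Those that rose include the deacetylase gene Sirt1 (0.53 ± 0.09 and 0.55 ± 0.09), and those that fell include Sirt3 (-0.40 ± 0.08 and -0.38 ± 0.11), and Nrip1, which encodes a corepressor of ERRα, was at 1.18 ± 0.24 in eWAT. Of 19 respiratory genes none was higher and 7 were lower in eWAT, and 1 was higher and 7 lower in iWAT, with Cox4i1 at -0.73 ± 0.12 and -0.57 ± 0.10. Of the mtDNA-encoded rows, Cox2 was lower in both (-0.62 ± 0.14 and -0.64 ± 0.17). Atpase6 was called lower in eWAT (-0.42 ± 0.17, 0.0485) and was not called in iWAT (-0.35 ± 0.16, 0.0828). The mt-Nd4 row was called in neither depot (-0.17 ± 0.17 and -0.05 ± 0.15).

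The diet difference ran with transcript base composition over all genes. With genes split by transcript G+C into 10 bins of equal size, the median HFD minus chow difference was 0.33 in the lowest and -0.48 in the highest bin in eWAT, and 0.44 and -0.43 in iWAT. Reads themselves held 48.91% ± 0.452 G+C on HFD and 49.47% ± 0.351 on chow in eWAT (SD, n = 14 and 15), and 48.05% ± 0.573 on HFD and 48.96% ± 0.566 on chow in iWAT (n = 14 and 16). The 2 genes with the most G+C, Esrra (61.8%) and Polrmt (60.9%), were among those that fell, and the gene with the least, Gabpa (41.4%), was the one that rose most. In eWAT 48.1% of the genes of its bin lay below Polrmt, 38% below Esrra and 76.1% below Gabpa. In iWAT these shares were 18.3%, 17.9% and 61.1%, and 5.15% lay below Ppargc1b (57.8% G+C).

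With the trend of G+C content and length removed, several diet calls were lost and some gained. In eWAT Polrmt (-0.19 ± 0.06, 0.0262), Nrf1 (-0.22 ± 0.05, 0.0028) and Gabpa (0.18 ± 0.05, 0.00545) were still called with smaller or like values, Esrra was not (-0.20 ± 0.09, 0.0861), and Polg2 (-0.50 ± 0.15, 0.014) and Tfam (-0.46 ± 0.13, 0.0107) were added. In iWAT Polrmt (-0.31 ± 0.07, 0.00586) and Ppargc1b (-0.73 ± 0.20, 0.0139) were still called, and the other 5 were not, with Gabpa at 0.05 ± 0.04 (0.398) and Esrra at -0.28 ± 0.10 (0.0585). Of the genes fitted, 85.1% in eWAT and 85.0% in iWAT had a G+C value. Since diet and run cannot be told apart, a base-composition difference of the runs and one of the tissue RNA cannot be told apart either.

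**Figure D4:**
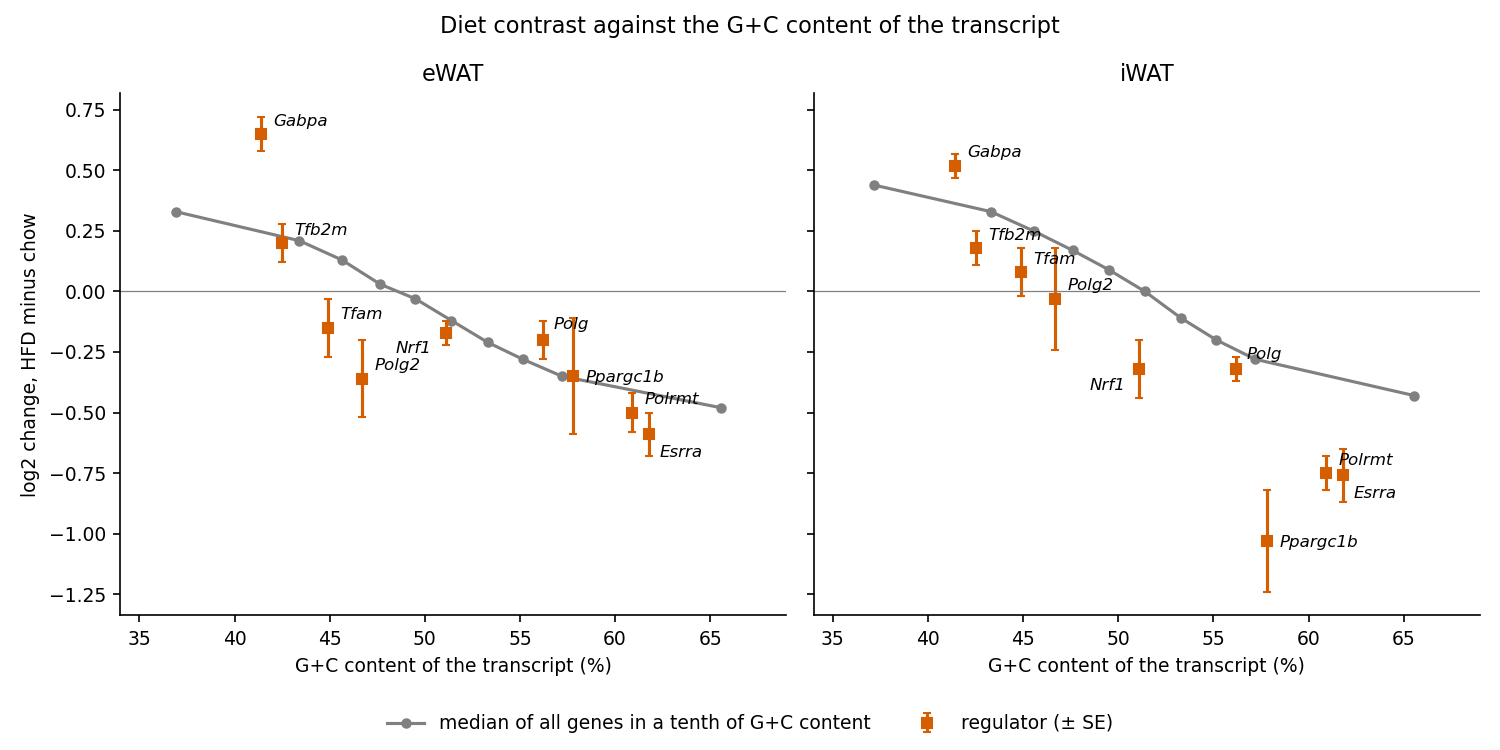
HFD minus chow log2 difference against transcript G+C percent in eWAT and iWAT: grey line, median of all genes in each of 10 bins of G+C, and orange squares, the 9 regulators with standard errors. The line runs down from 0.33 to -0.48 in eWAT and from 0.44 to -0.43 in iWAT, with Gabpa above it at the left and Ppargc1b well below it in iWAT.

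Within single genotypes the same 2 genes were separated by diet everywhere. This follows from the lack of overlap over the pooled libraries given above, and adds no support to it. Gabpa on HFD was above, and Polrmt below, every chow library of the same genotype and depot in all 8 pairs of groups. Of the 16372 genes fitted in both depots, 0.544% lay above in all 8 pairs and 0.263% below. In eWAT of C57n:C3Hmt Gabpa had 39.5, 40.1 and 38.7 CPM on HFD, against 19.8, 26.4, 27.9 and 20.7 on chow, 0.72 ± 0.14 (0.00995). The chow values of 19.8 and 20.7 were those of replicates 1 and 4, which held 54044 and 50511 CPM of epithelial markers. The Gabpa difference of this line without these libraries is not given here. In eWAT of C3Hn:C57mt Gabpa had 39.3, 41.9 and 38.5 CPM on HFD, against 25.2, 23.3, 24 and 26.2 on chow, 0.71 ± 0.14 (0.00324). In the wild types it was at 0.70 ± 0.13 (0.00276) in C57n:C57mt and at 0.47 (0.0891) in C3Hn:C3Hmt, with 34.4, 39.0, 32.1 and 38.7 CPM on HFD against 28.9, 23.6 and 26.3 on chow. In C57n:C3Hmt the call was lost in 3 of 7 fits that left out 1 library (adjusted p up to 0.0579) and with run as a covariate (0.73 ± 0.16, 0.0508). With the trend of G+C removed Gabpa was called in eWAT of no genotype, at 0.26 (0.0984) in C57n:C3Hmt, 0.16 (0.287) in C3Hn:C57mt, 0.25 (0.0535) in C57n:C57mt and 0.05 (0.876) in C3Hn:C3Hmt.

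In eWAT the members called were 1 in C57n:C3Hmt (Gabpa), where 6.98% of all genes were called, and 3 in C3Hn:C57mt, where 11.1% were. The others in C3Hn:C57mt were Esrra (-0.59 ± 0.18, 0.0359) and Polg2 (-1.09 ± 0.33, 0.0369), calls lost in 6 and 5 of 7 fits without 1 library (adjusted p up to 0.209 and 0.16, both without HFD replicate 3). In wild-type C57n:C57mt 3 were called against 16.9% of all genes, with Esrra at -0.78 ± 0.16 (0.00589) and Polrmt at -0.51 ± 0.16 (0.0311), which lost its call in 6 of 8 such fits (up to 0.082, without HFD replicate 2). With the G+C trend removed, Esrra (-0.38, 0.119) and Polrmt (-0.10, 0.573) also lost their calls in C57n:C57mt, where Tfam (-0.76, 0.0428) and Nrf1 (-0.33, 0.028) gained one, and of the calls in C3Hn:C57mt only that of Polg2 was still made (-1.19, 0.0323). In wild-type C3Hn:C3Hmt edgeR called none, against 1.66% of all genes, with 4 members at an unadjusted p under 0.05. DESeq2 called 4 there, as did edgeR without the libraries that held epithelial RNA, in each case Polrmt, Polg, Gabpa and Esrra. The all-gene shares under these settings are not given here. The all-gene count of this comparison ran from 5 to 1568 over fits that left out 1 library.

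In iWAT 5 members were called in C57n:C3Hmt, where 16.5% of all genes were, and 2 in C3Hn:C57mt, where 7.70% were. In wild-type C57n:C57mt 5 were called against 16.7%, and in wild-type C3Hn:C3Hmt 2 against 4.88%. Polrmt and Gabpa were called in all 4 genotypes. Polrmt had 10, 15, 12.6 and 14.1 CPM on HFD, against 19.6, 26.9, 20.7 and 28.1 on chow, in C57n:C3Hmt (-0.88 ± 0.14, 0.000168). It had 15.2, 10.9 and 14.3 CPM on HFD, against 24.3, 21.7, 19.2 and 24.8 on chow, in C3Hn:C57mt (-0.72 ± 0.15, 0.00409). No HFD library reached the chow range in either line, which follows from the lack of overlap over the pooled iWAT libraries. Every HFD library lay below every chow library for 6.53% of all genes in C57n:C3Hmt and 15% in C3Hn:C57mt. In the wild types Polrmt was at -0.79 ± 0.14 (0.000634) in C57n:C57mt and -0.61 ± 0.15 (0.02) in C3Hn:C3Hmt, where the call was lost without HFD replicate 3 (-0.58, 0.0694). With the G+C trend removed, all 8 of these iWAT calls of Polrmt and Gabpa were lost, with Polrmt at -0.41 (0.0931) in C57n:C3Hmt, -0.30 (0.471) in C3Hn:C57mt, -0.35 (0.114) in C57n:C57mt and -0.16 (0.573) in C3Hn:C3Hmt.

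Polg, Ppargc1b and Esrra were called in iWAT of both lines with the C57 nuclear genome and in neither line with the C3H nuclear genome, where fewer of all genes were called as well. In both C3Hn lines all 3 genes nonetheless had every HFD library below every chow library, which was so for 15% of all genes in C3Hn:C57mt and 7.21% in C3Hn:C3Hmt. The differences in C3Hn:C57mt were -0.29 ± 0.11 (0.111) for Polg, -0.73 ± 0.43 (0.323) for Ppargc1b and -0.52 ± 0.22 (0.151) for Esrra. Those in C3Hn:C3Hmt were -0.21 ± 0.11 (0.253) for Polg, -0.81 ± 0.43 (0.259) for Ppargc1b and -0.49 ± 0.22 (0.183) for Esrra. Esrra was at -0.87 ± 0.20 (0.00515) in C57n:C3Hmt and -1.16 ± 0.20 (0.00076) in C57n:C57mt. Ppargc1b was at -1.19 ± 0.39 (0.0377) in C57n:C3Hmt, with 1.51, 5.16, 3.31 and 2.07 CPM on HFD against 1.93, 13.5, 5.35 and 6.97 on chow, and 6 of 8 fits that left out 1 library lost the call, most of all without the library at 13.5 CPM (-0.72, 0.228). Ppargc1b was at -1.40 ± 0.40 (0.0191) in C57n:C57mt, with 2.21, 2.11, 2.46 and 1.35 CPM on HFD against 6.86, 3.93, 5.27 and 5.58 on chow. These groups did not overlap, with every HFD library below, as in 12.6% of all genes there. Its call was lost in 2 of 8 such fits (up to 0.0575, without HFD replicate 4). With the G+C trend removed, the only one of these calls still made in the C57n lines was that of Esrra in C57n:C57mt (-0.68 ± 0.20, 0.0471), and Gabpa in iWAT changed sign, to -0.02 in C57n:C3Hmt and -0.09 in C57n:C57mt. With lymphocyte and muscle marker levels as covariates Ppargc1b lost its call in both C57n lines, and Polg in C57n:C57mt.

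The tests of the difference itself called no member. For diet by nuclear genome in iWAT, where edgeR called 0.716% of all genes (121) and DESeq2 1454 genes, the lowest adjusted p was 0.131, for Esrra (-0.51 ± 0.21), and 2 members had an unadjusted p under 0.05. In eWAT edgeR called 0% of all genes for diet by nuclear genome and DESeq2 1107 genes, and 1 member, Tfb2m (0.41 ± 0.16, 0.184), had an unadjusted p under 0.05. For diet by mtDNA edgeR called 0% of all genes in all 4 tests, and DESeq2 7 to 387 genes. Of 36 member tests there, 2 had an unadjusted p under 0.05, both Polg2 in lines with the C3H nuclear genome (-1.11 ± 0.46 in eWAT and -1.51 ± 0.64 in iWAT), and the lowest adjusted p was 0.566. DESeq2 called no member in any of these 6 tests.

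Few of these genes differed between the nuclear genomes, with mtDNA origin averaged. On chow the nuclear genome cannot be told apart from lane. In muscle Ppargc1b was the only member called of 9, against 33.6% of all genes (17.1% higher and 16.5% lower with the C57 nuclear genome). It had 4.03, 6.03 and 10.2 CPM with the C57 nuclear genome (lowest, median, highest of 8), against 7.21, 10.3 and 16.1 with the C3H nuclear genome (of 8). All 8 C57n libraries lay below the C3Hn median, though the ranges overlapped, and the difference was -0.74 ± 0.20 (0.01). By genotype it had 8.49, 7.21, 5.77 and 5.03 CPM in C57n:C3Hmt and 4.03, 10.2, 6.28 and 4.55 in C57n:C57mt, against 7.21, 16.1, 13.6 and 13.4 in C3Hn:C57mt and 7.69, 8.10, 12.2 and 8.36 in C3Hn:C3Hmt. Next came Tfb2m (0.13 ± 0.05, 0.0536), Tfam (-0.11, 0.109) and Polrmt (-0.12, 0.111). With the G+C trend removed Polrmt (-0.16, 0.0195), Polg (-0.12, 0.0273) and Tfb2m (0.13, 0.00673) passed as well.

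Respiratory genes in muscle differed between the nuclear genomes, and so between lanes. Of 19, 12 were lower and 1 higher with the C57 nuclear genome (median -0.17), with Atp5b at -0.24 ± 0.04. The 3 mtDNA-encoded rows were higher, mt-Nd4 at 0.34 ± 0.05 (3.84e-05). Of 16 transcription and processing genes 1 was higher, Top1mt (0.41 ± 0.05), and 2 were lower. Of 12 maintenance genes 3 were higher and 3 lower, and of 18 regulators 1 was higher and 4 were lower, with Sirt3 at -0.28 ± 0.05. Against 33.6% of all genes, the shares called were 68.4% of respiratory, 18.8% of transcription, 50% of maintenance and 27.8% of regulator genes.

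In fat on HFD, Polg2 was the only member called, in eWAT, where 13.1% of all genes were called (5.55% higher and 7.55% lower with the C57 nuclear genome). It had 1.45, 2.02 and 3.01 CPM with the C57 nuclear genome (lowest, median, highest of 7), against 0.679, 1.21 and 2.69 with the C3H nuclear genome (of 7), a difference of 0.71 ± 0.23 (0.0397). The ranges overlapped, and the call was lost in 9 of 14 fits without 1 library (adjusted p up to 0.108, without C57n:C3Hmt replicate 1) and with run as a covariate (0.77 ± 0.25, 0.0516). In eWAT on chow no member was called by edgeR or DESeq2, against 15.1% of all genes, none had an unadjusted p under 0.05 and the lowest adjusted p was 0.261. In iWAT none was called by edgeR or DESeq2 on HFD, against 16.3% of all genes (0 members at an unadjusted p under 0.05, lowest adjusted p 0.231), or on chow, against 11.7% (2 members, lowest 0.173).

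Exchange of mtDNA called no member in edgeR in any of 10 comparisons of an exchange line with the wild type of the same nuclear genome. Of 90 member tests 9 had an unadjusted p under 0.05, and the lowest adjusted p was 0.159. All genes gave little more, with 0% called in 8 of the comparisons, 0.0112% (2 genes) in C3Hn:C57mt against C3Hn:C3Hmt in eWAT on HFD and 0.00728% (1 gene) in the same lines in muscle. DESeq2 called 2 members, Polg2 and Tfb2m, both in that eWAT comparison on HFD.

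There Polg2 had 0.679, 1.05 and 0.774 CPM in C3Hn:C57mt, against 1.93, 1.21, 2.69 and 1.75 in C3Hn:C3Hmt. The groups did not overlap, and the difference was -1.19 ± 0.33 (0.159 by edgeR and 0.0173 by DESeq2). Tfb2m had 23.4, 21.8 and 23.9 CPM in C3Hn:C57mt, against 31.5, 28.1, 43.3 and 34.2 in C3Hn:C3Hmt, -0.57 ± 0.17 (0.2 by edgeR and 0.0178 by DESeq2). On chow Tfb2m had 21.6, 24.5, 27.0 and 22.8 CPM in C3Hn:C57mt, against 34.5, 30.3 and 36.3 in C3Hn:C3Hmt, -0.50 ± 0.17 (0.317). Tfb2m groups thus did not overlap on either diet. The share of all genes separated this way was not computed for the mtDNA comparisons, so the lack of overlap only describes the Polg2 and Tfb2m values. In iWAT on HFD Polg2 had 0.348, 1.91 and 1 CPM in C3Hn:C57mt, against 1.77, 2.15 and 6.02 in C3Hn:C3Hmt, -1.61 ± 0.49 (0.429), and these groups overlapped.

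In muscle the lowest adjusted p of an mtDNA comparison was 0.669, for Polrmt in C3Hn:C57mt against C3Hn:C3Hmt (0.21 ± 0.08). It had 44.9, 49.7, 51.0 and 42.8 CPM in C3Hn:C57mt, against 42.3, 40.2, 44.7 and 37.4 in C3Hn:C3Hmt, with overlap. Over the 4 iWAT comparisons the members' differences ran from -1.61 to 0.57, and over the 2 in muscle from -0.21 to 0.48.

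**Figure D5:**
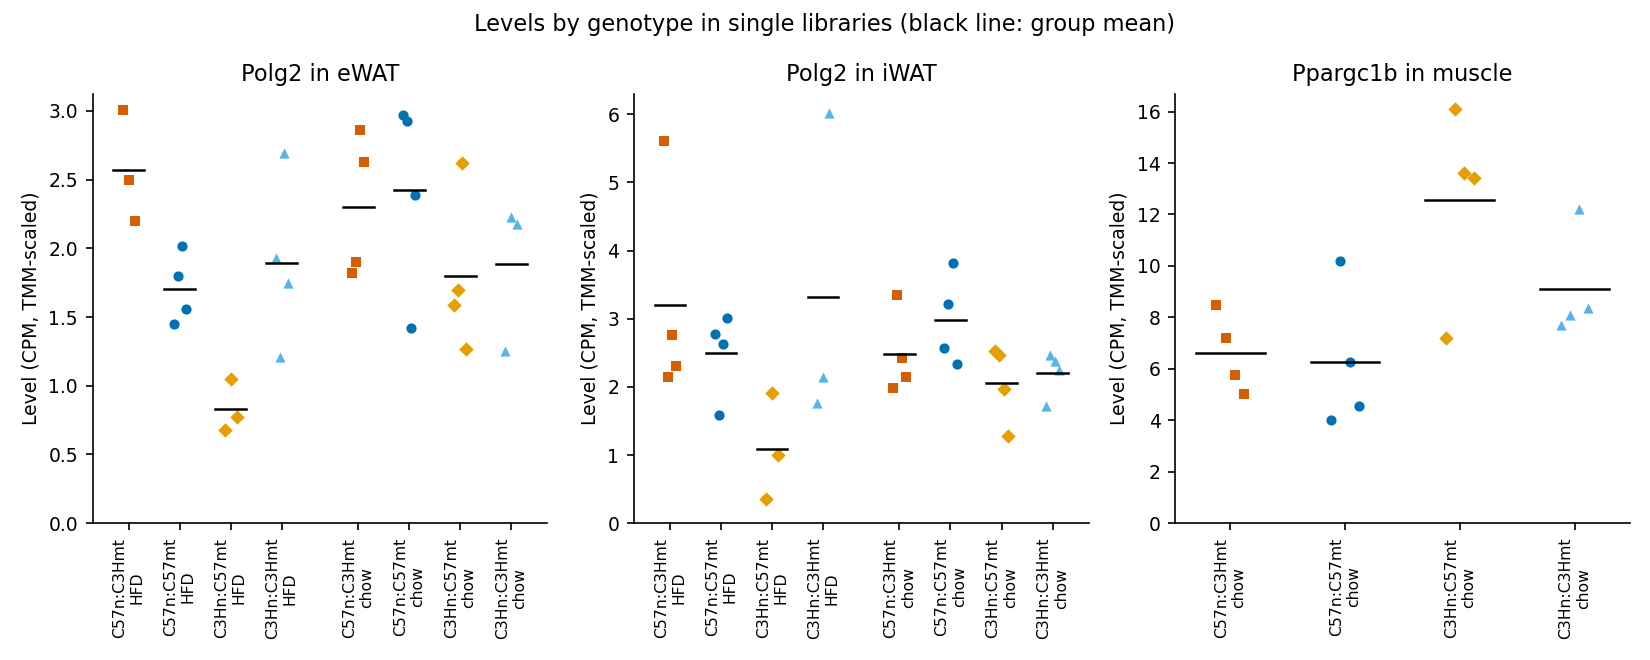
CPM of Polg2 in eWAT and iWAT (HFD, then chow) and of Ppargc1b in muscle, as single libraries by genotype with a line at each group mean. Polg2 in C3Hn:C57mt on HFD lies between 0.679 and 1.05 CPM in eWAT, below C3Hn:C3Hmt (1.21 to 2.69), and Ppargc1b in muscle is mostly lower in the lines with the C57 nuclear genome.

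Over the 20 group means (Pearson r of log2 CPM, a description over groups that share tissues and runs), most pairs of members other than those with Gabpa or Polg2 were high together. Polrmt and Esrra correlated at 0.97, Tfam and Tfb2m at 0.96, and Tfam and Esrra at 0.95. Gabpa correlated with the others at -0.29 to 0.39. The genes most like each member were Cox11 for Tfam (0.993), Dnajc11 for Esrra (0.991), Zfp777 for Polrmt (0.99), Osgepl1 for Tfb2m (0.989), Nol5a for Nrf1 (0.966), Zfx for Gabpa (0.956), Zfp467 for Ppargc1b (0.953), Tars2 for Polg (0.896) and Phyhd1 for Polg2 (0.855).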

How the data were processed

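RNA sequencing of 75 libraries was read from the authors' deposited gene tables, a chow table of 22423 genes and a HFD table of 21983. The deposited values are expected counts estimated by RSEM on mm9 and not normalized, per the submitters' processing notes and the file headers, and 68.0% of them are whole. The notes also name DESeq2 1.10.1. Mapper settings, annotation and strand use were not given in the sources used here. G+C and mapping percent values per library came from the authors' deposited quality tables, and the percent of a gene's counts on its RefSeq transcript was computed from their deposited transcript counts.

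Counts were rounded, a gene absent from 1 table was set to 0, and edgeR 4.0.16 (R 4.3.3) was fitted to every tissue with its groups together (TMM, quasi-likelihood test, filterByExpr with minimum count 10, total 15 and proportion 70%). Depots and chow tissues were also fitted jointly. P-values were adjusted by Benjamini-Hochberg over all genes of a comparison at 0.05. Printed CPM use TMM factors over all 75 libraries. The fit was checked on simulated counts. The 36 comparisons share control samples. All 9 genes are described, pathway lists give their called genes with up to 3 named a direction by lowest adjusted p, and the members and lists were chosen with earlier results of these data known. Similar genes were ranked among genes with a mean log2 CPM of at least 1 (prior count 2).

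Alternatives were DESeq2 1.42.0, median-of-ratios scaling, no filter on low counts, removal of the trend with transcript G+C and length, run or marker levels as covariates, the animal as a block, and leaving out each library; leaving out the 6 eWAT libraries with epithelial RNA was chosen after seeing the data. Same-numbered animals pair tissues by the labels, with 20 animals for eWAT and iWAT (median correlation of deviations 0.202, from -0.119 to 0.559), 7 for muscle and eWAT (0.062) and 10 for muscle and iWAT (0.0545).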

Additional observations from a re-analysis of the deposited data

Results flagged for a closer look

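Of 135 combinations of gene and group of 4 libraries, 5 held a library whose gap to the others was past Dixon's 95% limit, and chance flags about 1 in 20. Tfam gave 4 of them. In eWAT of C57n:C57mt on chow, replicate 3 had 58.8 CPM, against 19.8 to 21.8 in the other replicates, and this library also held 13669 CPM of epididymal epithelium markers and 4924 CPM of male germ cell markers. In iWAT of C3Hn:C3Hmt on chow, replicate 1 had 29.6 CPM, against 24.6 to 25.4. In muscle of C3Hn:C3Hmt, replicate 1 had 94.3 CPM, against 83.4 to 85.2, and in muscle of C3Hn:C57mt, replicate 3 had 93.2 CPM, against 71.6 to 74.9. Ppargc1b in muscle of C3Hn:C3Hmt had 12.2 CPM in replicate 3, against 7.69 to 8.36 in the other replicates. The part of other cells' RNA in these values was not tested.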

How the results depend on the processing

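Of 780 recounts of the members called per comparison, 730 stayed within 1.5 times. These include comparisons with 0 members called that stayed at 0, and many recounts left out only 1 library. The share thus says little about the comparisons in which members were called. A like count need not mean like genes: with G+C removed, eWAT of C57n:C57mt gave 2 in place of 3, but Polrmt, Gabpa and Esrra were lost and Tfam and Nrf1 gained. Counts that moved further were HFD minus chow in eWAT of C57n:C3Hmt (1 called: 2 by median-of-ratios scaling, 4 by DESeq2, 0 with G+C removed, 0 with run as a covariate, 3 without the 6 epithelial libraries), C3Hn:C57mt (3: 1 without the filter, 1 with G+C removed) and C3Hn:C3Hmt (0: 4 by DESeq2, 4 without the 6 libraries). In iWAT, removal of G+C left 2 of 7 on average, 0 of 5 in C57n:C3Hmt, 0 of 2 in C3Hn:C57mt, 1 of 5 in C57n:C57mt (3 with marker covariates) and 0 of 2 in C3Hn:C3Hmt (1 with run). It reversed Tfb2m on average (-0.10) and Gabpa in C57n:C3Hmt (-0.021) and C57n:C57mt (-0.087). For the nuclear genome on HFD, eWAT went to 0 of 1 without the filter or with run, and iWAT to 1 in place of 0 with run, and muscle gave 4 in place of 1 with G+C removed. C3Hn:C57mt minus C3Hn:C3Hmt in eWAT on HFD gave 2 by DESeq2 and 1 without the 6 libraries, in place of 0. eWAT minus iWAT on HFD gave 2 of 4 with run. The all-gene share called under each setting is not given beside these counts, so they describe the fits and are no result about the members. The causes were not tested.

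Leaving out 1 library gave ranges of 4 to 5 members for HFD minus chow on average in eWAT, 0 to 2 in C57n:C3Hmt, 1 to 2 in C3Hn:C57mt, 2 to 3 in C57n:C57mt and 0 to 1 in C3Hn:C3Hmt; in iWAT 5 to 7, 4 to 6, 2 to 2, 4 to 6 and 1 to 3. They were 0 to 1 for diet by nuclear genome in iWAT, 0 to 1 for the nuclear genome on HFD in eWAT and in iWAT, 0 to 2 in iWAT on chow, 1 to 2 in muscle, 3 to 4 for eWAT minus iWAT on HFD and 6 to 7 on chow, and 7 to 8 for muscle minus iWAT. With the replicate block (animal), members called went to 5 for eWAT minus iWAT on chow, 3 on HFD, 8 for muscle minus eWAT and 8 for muscle minus iWAT, and it changed no call beyond those given above.

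Over all genes, DESeq2 called 58 to 573 for mtDNA exchange in eWAT, 8 to 37 in iWAT and 6 to 12 in muscle, where edgeR called 0 to 2, and 652 for depot by diet in place of 8. It called 1107 (eWAT) and 1454 (iWAT) genes for diet by nuclear genome, where edgeR called 0 and 121, and 7 to 387 for diet by mtDNA, where edgeR called 0. Removal of G+C left 2634 of 6345 for diet in iWAT. Without the 6 libraries 4915 in place of 2329 genes differed by nuclear genome in eWAT on HFD, and 45.9% in place of 56.8% of calls were higher for eWAT minus iWAT on chow (46.3% with the block). Low counts of Polg2 and Ppargc1b limit what their tests could show.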

Other observations

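Transcript counts add 2 observations on Gabpa and Tfam, given as values. The share of Gabpa counts on its RefSeq transcript had a median of 48.7% with the C57 nuclear genome and 58.4% with the C3H nuclear genome in eWAT on HFD, and 73.2% and 91.0% on chow. In iWAT the medians were 41.1% and 77.5% on HFD, and 76.5% and 93.1% on chow, and in muscle 63.3% and 95.0%. The median share was thus lower with the C57 nuclear genome in all 5 of these sets, and lower on HFD than on chow in all 4 sets of fat, while the total Gabpa count was higher on HFD. Single libraries overlapped in each of these comparisons, in muscle at 39.0% to 97.3% against 43.9% to 100%. The same share for Nrf1 ran from 0% to 73.2% in iWAT on chow with the C57 nuclear genome, so such shares varied widely between replicates. These differences in share were not tested.

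Tfam counts lay on the RefSeq transcript at 99% or more in all libraries except 5. The lowest was eWAT C57n:C57mt chow replicate 3 at 28.8%, the library with 58.8 CPM of Tfam and with germ cell markers. In iWAT, C57n:C3Hmt HFD replicate 1 stood at 62.9% and C3Hn:C3Hmt HFD replicate 3 at 63.3%, and C57n:C57mt HFD replicate 2 and C3Hn:C3Hmt chow replicate 1 at 96.6% and 98.8%.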
